A study of Mus musculus with 10 samples.

Results

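The AsiSI library of a translocation survey in mouse pre-B cells was set against its 2 untreated libraries, 3 of the 10 libraries of the series. Genomic DNA came from Abelson-transformed pre-B cells of C57BL/6 background with the genotype LIG4-/-, so all 3 libraries lack DNA ligase IV, the ligase of classical end joining. Cells were held in G1 by 48 h of imatinib, and from 24 h of imatinib doxycycline at 1 µg/ml induced a zinc-finger nuclease that cuts chromosome 6 (coordinates here are those of mm10). In the AsiSI library the restriction enzyme AsiSI was induced as well, with the same doxycycline and, 20 h later, tamoxifen at 1 µM. The untreated libraries, replicates 1 and 2, had the nuclease break without AsiSI, tamoxifen or another drug. The labels do not say that the untreated replicates came from separate cultures, and they name no control for the AsiSI library. They do not describe the AsiSI construct or name the cell lines used, so a clonal difference between libraries was not tested.

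High-throughput genome-wide translocation sequencing reads what has been joined to 1 fixed break, the bait. Each row of the data is 1 junction, and prey means a junction on chromosomes 1 to 19 or X more than 1 Mb from the bait break. AsiSI recognises an 8-base palindrome rich in CpG and leaves short 3' overhangs. Such sequences are rare in mammalian genomes and lie mostly in the CpG-rich promoters of genes, where methylation of the site can block the enzyme. Tamoxifen is used to bring hormone-receptor fusions of the enzyme into the nucleus. In G1 cells without ligase IV, broken ends are joined through other pathways, often at short stretches of shared bases called microhomology. In arrested pre-B cells the RAG recombinase cuts the V and J gene segments of the kappa light chain locus, which lies on the same chromosome as the bait.

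The AsiSI library held 9661 junctions on these chromosomes, against 2038 and 6326 in untreated replicates 1 and 2. Prey numbered 2230 with AsiSI, against 914 and 1053 untreated, and prey outside antigen receptor loci 931, against 675 and 368. Each library came from a different sequencing run, as its read names show. The run of the AsiSI library was shared only with the library that had AsiSI and DRB, an inhibitor of transcription elongation, so AsiSI, tamoxifen and run cannot be told apart. The median prey alignment outside antigen receptor loci was 68 bp with AsiSI, against 253 and 67.5 bp untreated. Untreated replicate 1 therefore stands apart in read length and, below, in its level of prey, and results are given against each untreated library. Fisher's exact tests compare single libraries, cover counting error only and were adjusted over 40 tests. The two-sided permutation test of 1 library against 2 cannot go below p = 0.333 and gave that value for the shares at promoter sites, in windows and at gene ends, and 0.667 for direct joints.

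The recognition sequence lay close to junctions. Read sites, here that of Syde2, came from the pooled prey reads of all 10 libraries, with the commonest base taken at each position. A single read need not hold the whole site. The other sites came from the RefSeq promoters of GRCm38.p6, which run from 250 bp before to 50 bp after each annotated start. The sequences below are the site with most AsiSI junctions and 5 promoter sites with most, shown because junctions lie within 1 kb of them. The Gps1 site ties with that of Snx11, with 2 AsiSI junctions each. Sites read at Zc3hav1, Pcgf1 and Hk2 are described below and not printed. Capitals mark the AsiSI site, and each is written 5′ to 3′ on the strand given.
Syde2, chr3:145989036-145989065, plus strand: gatgaagggtcGCGATCGCgggacagcacc
Lpcat3, chr6:124662908-124662937, plus strand: gcagctgggtcGCGATCGCaagccccgccc
Nfs1, chr2:156144249-156144278, minus strand: cgttctccgctGCGATCGCtcagctcgacg
Alas1, chr9:106247863-106247892, minus strand: tagggccgccaGCGATCGCggccttaggct
Klf7, chr1:64121464-64121493, minus strand: gggggagagaaGCGATCGCgagaaaaaaaa
Gps1, chr11:120784152-120784181, plus strand: gcacggctcatGCGATCGCcccggcccggg
The Nfs1 site lies in the shared promoter of Nfs1 and Romo1, and the Gps1 site in that of Gps1 and Rfng. The Alas1 site lies also in the promoter of 4930500F10Rik, and the Klf7 site also in that of Gm35880.

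Joining at AsiSI sites in promoters was measured in the AsiSI library and in neither untreated library. The motif GCGATCGC, which reads the same on both strands, occurred in 73 of 32619 promoters (0.224%), at 62 distinct sites. Within 1 kb of these sites lay 37 of 2230 prey junctions with AsiSI (1.66%, exact 95% binomial interval 1.17 to 2.28), against 0 of 914 (a count of 0 allows up to 0.328%) and 0 of 1053 (up to 0.285%) in untreated replicates 1 and 2. The share was higher with AsiSI than in either untreated library (two-sided Fisher's exact test, adjusted p = 1.14e-05 and 2.77e-06). Set against a limit of 3 counts over both untreated libraries, it was 10.9-fold higher per prey junction. That ratio leaves out the counting error of the AsiSI share. The AsiSI junctions were spread over 16 of the 62 sites. A comparison palindrome of the same base composition, GCGTACGC, occurred in 24 promoters (0.0736%), at 19 distinct sites, and had 0 junctions within 1 kb in all 3 libraries.

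Lpcat3, which encodes an acyltransferase of membrane phospholipids, had most of these junctions, with 9 in the AsiSI library, against 0 in each untreated library. The site shared by Nfs1, the cysteine desulfurase of iron-sulfur cluster synthesis, and Romo1, a mitochondrial membrane protein gene, had 6, against 0 and 0. Alas1, the rate-limiting enzyme of haem synthesis, had 5 at its site, and the transcription factor gene Klf7 had 3. The sites of Gps1, a COP9 signalosome subunit gene, and of Snx11, a sorting nexin gene, had 2 each. Each of the other 10 joined sites had 1 junction, among them those of Smad3, a signal transducer of TGF-beta, Dusp5, a phosphatase gene, and the kinase genes Map3k14 and Plk3. Both untreated libraries had 0 at every one of the 62 sites. Elsewhere in the series, the library with AsiSI and DRB had 32 of 2914 prey junctions within 1 kb of the 62 sites (1.10%), 21 of them within 50 bp. Of the libraries without AsiSI, etoposide replicate 1 had 7 within 1 kb and the library with IFN and etoposide 2, with 0 of these within 50 bp of a site.

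The strand of the junctions pointed away from the sites. At a break, joined sequence must run outward from it, to the right on the plus strand and to the left on the minus strand. All 24 AsiSI junctions within 50 bp of a promoter site ran outward (100%, interval 85.8 to 100), 10 to the right and 14 to the left, at a median of 18 bp from the site's centre. Between 50 bp and 1 kb 6 of 13 ran outward (46.2%, interval 19.2 to 74.9). In the library with AsiSI and DRB all 21 within 50 bp ran outward, and between 50 bp and 1 kb 9 of 11 did (81.8%, interval 48.2 to 97.7). Of the 24 AsiSI junctions within 50 bp, 20 had microhomology, 1 had inserted bases and 3 were direct joints.

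**Figure D1:**
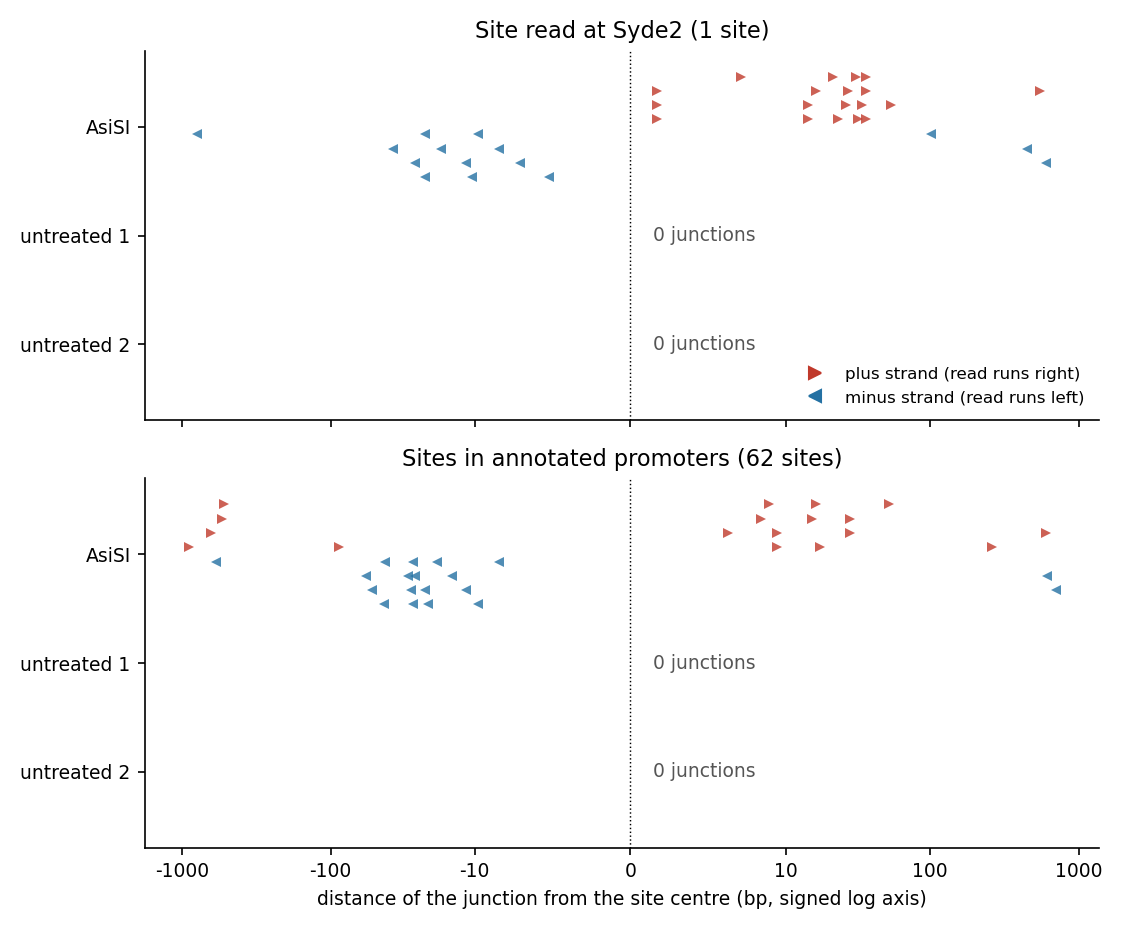
Position of each prey junction within 1 kb of the AsiSI site read at Syde2 (top) and of the 62 AsiSI sites in annotated promoters (bottom), on a signed log axis in bp, for the AsiSI library above untreated replicates 1 and 2. Each arrowhead is 1 junction, pointing right for the plus strand and left for the minus strand, with heights spread for legibility; near the site all point outward, and both untreated libraries have 0 junctions.

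The most joined site lay in Syde2. Its 8 bases at chromosome 3, 145989047 to 145989054, lie inside the gene (145987405 to 146021720, plus strand), 1177 bp after the annotated start at 145987870. Exon and UTR annotation was not used here. Within 1 kb of the site lay 34 of 2230 prey junctions with AsiSI (1.52%, interval 1.06 to 2.12), against 0 of 914 and 0 of 1053 untreated. By the same limit the share was 10.0-fold higher per prey junction, again without the counting error of the AsiSI share. This site was found in reads that include those of the AsiSI library, so these values are a description with no test. Of the 34 junctions, 28 lay within 50 bp, 17 to the right and 11 to the left, and all 28 ran outward. Their median distance from the site's centre was 19.5 bp. Of the 28, 21 had microhomology, 3 were direct and 4 had inserted bases. The library with AsiSI and DRB had 26 junctions within 1 kb, and all 8 libraries without AsiSI had 0.

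Reads that cross the Syde2 joints are printed here, 1 of each kind and the nearest to the site, to show where bait and prey meet, with bait sequence first. In the direct joint, capitals mark the prey, which begins at the middle of the site, 0.5 bp from its centre. In the joint with microhomology, capitals mark the 2 bases shared by bait and prey, and the prey begins at the same place. In the joint with an insert, capitals mark 21 bases that lie between both alignments, the prey begins 4.5 bp from the centre, and the bait end had lost 111 bp.
Direct: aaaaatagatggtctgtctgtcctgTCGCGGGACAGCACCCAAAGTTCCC
Microhomology: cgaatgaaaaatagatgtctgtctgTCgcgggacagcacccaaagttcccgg
Insert: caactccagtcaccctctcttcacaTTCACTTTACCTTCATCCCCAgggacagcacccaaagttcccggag
Prey that begins with the letters at the cut was rare over the whole library. Reads whose prey part began with CGC, TCGC or ATCGC, the letters at the cut, numbered 11 of 2230 with AsiSI (0.493%), against 1 of 914 (0.109%) and 4 of 1053 (0.380%) untreated, which did not pass (Fisher's exact test, adjusted p = 0.346 and 1). The whole site was in the first 60 prey bases of 0 of 2230 reads with AsiSI (which allows up to 0.135%), against 0 of 914 and 0 of 1053 untreated. Prey that runs outward from a cut site cannot hold the whole site, so this count cannot show whether sites were cut.

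Windows chosen in another library, without the motif, were also joined in the AsiSI library alone of the 3. The 17 windows of 2 kb with at least 3 prey junctions in the library with AsiSI and DRB, and 0 in any library given IFN, DRB alone or etoposide, used neither the AsiSI library nor the untreated ones. They held 76 of 2230 prey junctions with AsiSI (3.41%, interval 2.69 to 4.25), against 0 of 914 (up to 0.328%) and 0 of 1053 (up to 0.285%) untreated. The share was higher with AsiSI (Fisher's exact test, adjusted p = 1.56e-11 and 7.78e-13). By the limit of 3 counts over both untreated libraries it was 22.3-fold higher per prey junction, without the counting error of the AsiSI share. Without the 2 windows at Syde2, 41 junctions were left with AsiSI, against 0 and 0. The library that chose the windows shares run and tamoxifen with the AsiSI library, and the part of these in the result was not tested. The libraries required to have 0 include those that share runs with the untreated libraries. This demand could lower the untreated counts in advance, and its part was not tested either.

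**Figure D2:**
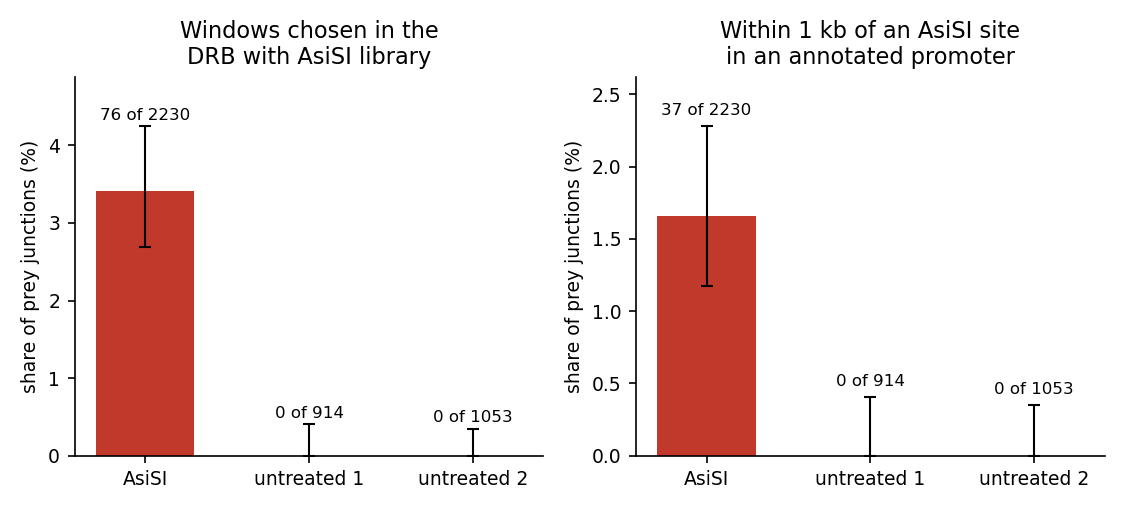
Share of prey junctions (%) in the windows chosen in the library with DRB and AsiSI (left) and within 1 kb of an AsiSI site in an annotated promoter (right), for the AsiSI library and untreated replicates 1 and 2. Bars are the share, lines exact 95% binomial intervals, and the counts stand above; the AsiSI shares of 3.41% and 1.66% lie above the untreated intervals, whose shares are 0.

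Of the 17 windows, 12 were joined in the AsiSI library, and 9 of the 17 had their median within 1 kb of the start of a protein-coding gene. For the windows at Atp8a2, Lag3 and next to Pcgf1 this distance was not measured, since no annotated start of these genes was used. Nor was it measured for the 3 windows with no protein-coding gene within 5 kb. The window at Rcor1, a corepressor of the CoREST complex, held 8 AsiSI junctions within 40 bp of each other, 4 on each strand, against 0 and 0 untreated. Mex3a, an RNA-binding protein gene, had 7, the window at Romo1 and Nfs1 6, and the kinase gene Dyrk3 4. Klf7 and Klhdc4, a kelch-domain gene, had 3 each, Ube2g1, a ubiquitin-conjugating enzyme gene, 2, and Atp8a2, a lipid flippase gene, 1. Windows with no protein-coding gene within 5 kb, on chromosomes 19 and 17, had 4 and 3. The windows at Fam160b1, Prrc2b, Lag3, next to Pcgf1 and at a place on chromosome 11 had 0 AsiSI junctions. Both untreated libraries had 0 in all 17. A known AsiSI site, in the promoters or the reads, was in 3 of the 17 windows, and sites elsewhere in the genome were not analysed here.

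Clusters picked in the AsiSI library itself were described in the same way, with no test, since its junctions chose them. They were the 2-kb windows with at least 3 AsiSI junctions and 0 in the 8 libraries without AsiSI. There were 13, with 87 junctions (9.34% of prey outside antigen receptor loci). With either untreated library in place of AsiSI there were 0, under a stricter rule that also asked for 0 in every other library of the series. The untreated libraries also held fewer prey, so these counts are not matched to the 13. Of the 13, 12 also had junctions in the library with AsiSI and DRB, 66 in all, and 8 had their median within 1 kb of an annotated start. The annotated starts lacked that of Ppp1r15b, so its cluster was measured to the start of Pik3c2b, 85834 bp away. Beyond the genes above they included Ezh2, the methyltransferase of Polycomb complex PRC2, with 4, Ppp1r15b, a phosphatase regulator of the stress response, with 3, and Hsd11b1, a steroid dehydrogenase gene, with 3. Their spans ran from 8 to 1390 bp, with a median of 235 bp. In 5 of the 9 clusters with both strands, every minus-strand junction lay left of every plus-strand one. Among these 5, Klhdc4 and Ppp1r15b had only 3 junctions each, and no test was made of the order. In the others, 230 of 285 strand pairs had this order at Syde2, 9 of 12 at Mex3a, 6 of 9 at Romo1 and 0 of 2 at Klf7.

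Joining also lay closer to gene ends than in the untreated libraries. Off chromosome 6 and outside antigen receptor loci, 241 of 697 AsiSI prey junctions (34.6%, interval 31.0 to 38.2) lay no more than 5 kb from the start or end of a protein-coding gene, against 90 of 615 (14.6%, 11.9 to 17.7) and 49 of 245 (20.0%, 15.2 to 25.6) untreated. The share was higher with AsiSI than in either untreated library (Fisher's exact test, adjusted p = 1.93e-16 and 4.32e-05). With the junctions at promoter sites and in the 17 windows left out, it was 25.7%, against 14.6% and 20.0%, and no longer passed against untreated replicate 2 (Fisher's exact test, adjusted p = 0.175). The untreated libraries had 0 such junctions, so only the AsiSI library lost any by this step. Elsewhere in the series, the full share was 29.5% and 30.2% in etoposide replicates 1 and 2 and 31.2% with IFN and etoposide. It was 31.5% with AsiSI and DRB, 21.0% with DRB and etoposide, 20.4% with DRB and 15.8% with IFN. A high share was thus not particular to AsiSI.

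Annotated starts were used in place of both ends, with chromosome 18 left out. The starts of some genes, among them Ppp1r15b, Pcgf1, Lag3 and Atp8a2, were not among them. Junctions at such starts were measured to another start farther away, and the part of this in the values below was not tested. Within 1 kb of a start lay 108 of 677 AsiSI junctions (16.0%, interval 13.3 to 18.9), against 7 of 594 (1.18%, 0.475 to 2.41) and 12 of 238 (5.04%, 2.63 to 8.64) untreated. The share beyond 100 kb from any start was 33.7% with AsiSI, against 50.5% and 43.3%. The median distance was 28.5 kb with AsiSI, against 102 and 68.3 kb. The AsiSI junctions thus lay nearer to starts than those of either untreated library. Without those at sites and in windows, 55 of 583 AsiSI junctions (9.43%, interval 7.19 to 12.1) were within 1 kb of a start, against 1.18% and 5.04% untreated, and the share no longer passed against both untreated libraries (Fisher's exact test, higher adjusted p = 0.0683). The share within 5 kb was 19.6%, against 9.60% and 10.1%, and passed against both (Fisher's exact test, adjusted p at most 0.00196). Here too only the AsiSI library lost junctions when sites and windows were left out. AsiSI sites outside the promoter stretches searched were not analysed here.

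**Figure D3:**
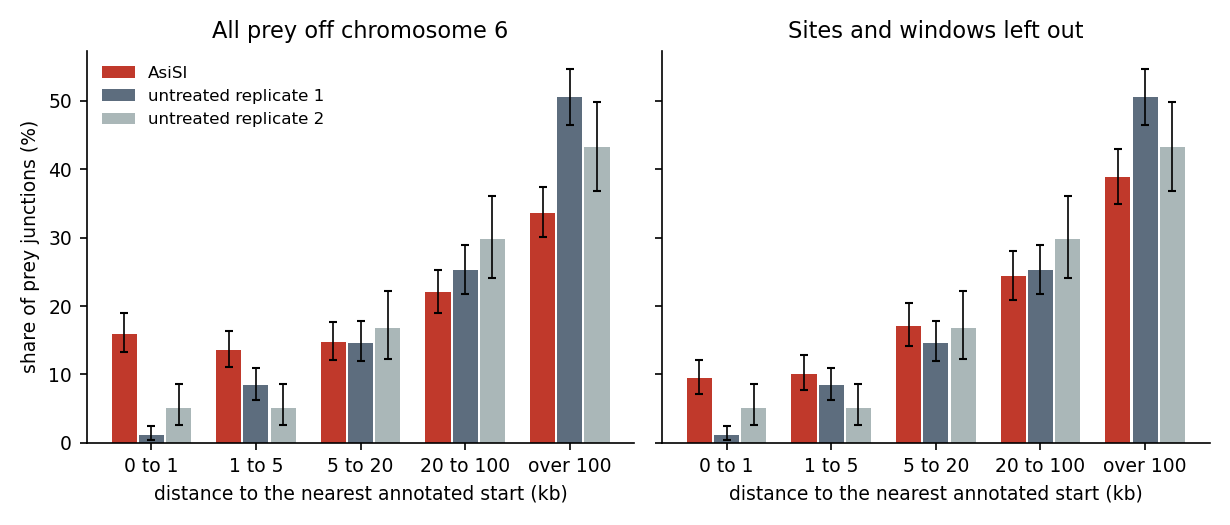
Share of prey junctions off chromosome 6 (%) by distance to the nearest annotated start of a protein-coding gene (kb), for the AsiSI library and untreated replicates 1 and 2, with all junctions (left) and with those at promoter sites and in the chosen windows left out (right). Lines are exact 95% binomial intervals; within 1 kb the AsiSI share was 16.0%, and 9.43% with sites and windows left out.

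Gene bodies held 358 of 697 AsiSI junctions off chromosome 6 (51.4%), against 241 of 615 (39.2%) and 110 of 245 (44.9%) untreated. This passed against untreated replicate 1 and not against replicate 2 (Fisher's exact test, adjusted p = 2.82e-05 and 0.160). A window of 20 kb on chromosome 2 that starts at 98660000 held 13 junctions with AsiSI, against 80 and 0 untreated. Without it the body shares were 52.3% with AsiSI, against 45.0% and 44.9%, so the low share of untreated replicate 1 rests in part on that window. Elsewhere in the series, the body share with all junctions ran from 37.0% with DRB to 67.8% in etoposide replicate 2.

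Single genes were compared next. Protein-coding genes, taken with 2 kb on each side, were joined in 336 cases with AsiSI, against 270 and 149 untreated. These counts are not scaled to prey outside antigen receptor loci, which numbered 931, against 675 and 368, so no excess is read from them. Syde2 led with 38 junctions in the AsiSI library, against 0 in each untreated library. Foxp1, a forkhead transcription factor needed for early B cell development and encoded on the bait chromosome, followed with 23, against 3 and 27, so its AsiSI value lies between the untreated ones. Zc3hav1, which encodes an antiviral zinc-finger protein, had 16, Pcgf1, a subunit of Polycomb complex PRC1, 13, and Lpcat3 and Mex3a 9 each, against 0 and 0 for each of these 4. Rcor1 had 8 and Slc6a6, the taurine transporter gene, 7, against 0 and 0 for both. Gtf3c4, a subunit of transcription factor TFIIIC, had 9, against 0 and 5, and Narf, a prelamin A-binding protein gene, 7, against 0 and 3. Of the 10 genes with most AsiSI junctions, 5 were on the bait chromosome. In the pooled prey reads, which include the AsiSI library's, an AsiSI site was found at 9 places in all. Beside Syde2 they included Zc3hav1, Pcgf1 and the hexokinase gene Hk2, with 15, 12 and 6 AsiSI junctions within 1 kb, against 0 and 0 at each. Edaradd, an adaptor gene of ectodysplasin signalling, had 3 and Plk3 1, against 0 and 0 for both. At the other 3 places the AsiSI library had 0, and at 1 of them untreated replicate 2 had 1. The read sites also had junctions without AsiSI. The site at Zc3hav1 had 5 and 0 in etoposide replicates 1 and 2 and 3 with IFN and etoposide, the site at Hk2 had 2, 2 and 3, and the site at Edaradd 2, 1 and 1, while those at Syde2, Pcgf1 and Plk3 had 0 in all 8 libraries without AsiSI. Several of the genes were also joined with etoposide. In etoposide replicates 1 and 2 and with IFN and etoposide, Zc3hav1 had 17, 3 and 12 and Slc6a6 12, 2 and 1. Lpcat3 had 5, 3 and 1, Hk2 4, 5 and 6, and Ezh2 9, 4 and 6. Pcgf1 and Rcor1 had 1 each over the 8 libraries without AsiSI, and Syde2, Mex3a, Alas1 and Nfs1 had 0.

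**Figure D4:**
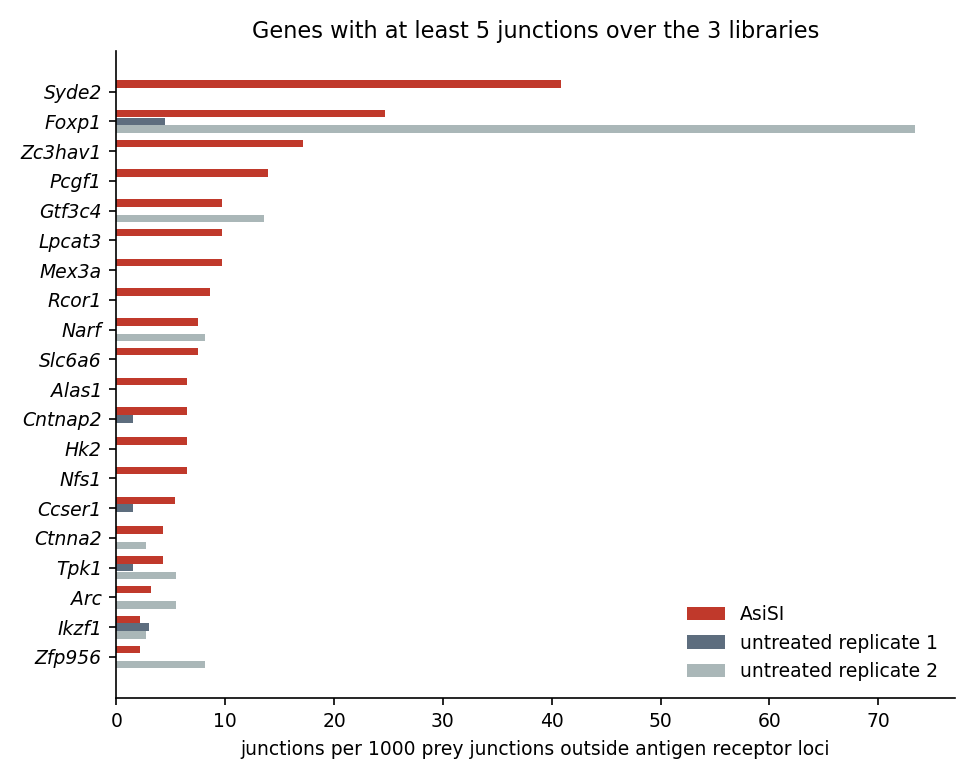
Junctions per 1000 prey junctions outside antigen receptor loci in the 20 genes with at least 5 junctions over the 3 libraries, with the AsiSI bar above those of untreated replicates 1 and 2. Syde2 is the longest AsiSI bar, 10 genes have no untreated bar, and Foxp1 is higher in untreated replicate 2 than with AsiSI.

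Only 20 genes had at least 5 junctions over the 3 libraries, 11 of them on chromosome 6. In the limma fit with voom weights 0 of the 20 passed an adjusted p of 0.05 (0%), and 0 had an unadjusted p under 0.05. The fitted log2 fold change of Syde2 was 5.37 ± 5.30 (SE, limma adjusted p = 0.979). The fit has 1 residual degree of freedom, and Foxp1, with 3 and 27 untreated junctions, is among its 20 genes. Fisher's exact test against the pooled untreated libraries, which leaves out the spread between them, called 10 of the 20 (50.0%). They were Syde2, Zc3hav1, Pcgf1, Lpcat3, Mex3a, Rcor1, Slc6a6, Alas1, Hk2 and Nfs1, the 10 genes with 0 in both untreated libraries. A gene with 0 untreated junctions passed the minimum of 5 only through the AsiSI library, so the minimum set the direction of these 10 and nothing is read from their number.

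Off chromosome 6 the gene lists took few junctions in any library. Of 19 B-lineage genes, only Ikzf1, the Ikaros transcription factor gene, was joined, by 2 junctions with AsiSI, against 2 and 1 untreated. Among 16 genes of recurrent leukaemia translocations Bcl6 and Ccnd1, a transcriptional repressor gene and a cyclin gene, had 1 each with AsiSI, against 0 and 0. The 17 long neural genes took 6, against 7 and 3 (0.861%, against 1.14% and 1.22%), with 2 each in the cadherin-family gene Pcdh15 and in Csmd3. The 20 genes of the double-strand break response, the 18 housekeeping genes and the 17 genes of other blood lineages had 0 in all 3 libraries. No list differed between AsiSI and an untreated library (Fisher's exact test, adjusted p at least 0.772), and counts this low could not show a difference. All protein-coding genes together took 59.0% of these junctions with AsiSI, against 41.6% and 48.6%.

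The level of prey as a whole was between those of the untreated libraries. Prey made up 23.1% of junctions with AsiSI (interval 22.2 to 23.9), against 44.8% (42.7 to 47.0) and 16.6% (15.7 to 17.6). Outside antigen receptor loci there were 125 prey per 1000 junctions near the bait with AsiSI, against 601 and 69.8. On chromosome 6 lay 25.1% of these, against 8.89% and 33.4%. In all 3 measures the AsiSI value lay between the untreated replicates, and the untreated mean ± SD of the prey share was 30.7% ± 19.9 (n = 2). The direction depends on which untreated library is taken, and the exact permutation p was 1 for each. With each position and strand counted once, prey made up 46.2% of junctions with AsiSI, against 30.2% and 57.5% as the lower and higher untreated values, and the difference from the untreated mean was 2.39 percentage points in place of -7.66. Prey outside antigen receptor loci then numbered 364 per 1000 junctions near the bait with AsiSI, against 154 and 1000, and both AsiSI values again lay between the untreated ones.

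Antigen receptor loci held 58.3% of prey with AsiSI (1299 junctions), against 26.1% (239) and 65.1% (685), again between the replicates. The kappa locus (chromosome 6, 67555636 to 70726754) had nearly all of them, 1288 with AsiSI, against 237 and 685. The combined alpha and delta T-cell receptor locus had 7, against 1 and 0, and the heavy chain locus 2, against 0 and 0. Within the kappa locus, V segments took 50.2% of the junctions with AsiSI, against 56.1% and 51.2%. The most joined was Igkv6-32, with 102 (7.92% of kappa junctions), against 7 (2.95%) and 45 (6.57%), followed by Igkv11-114 with 69, against 1 and 17. The J segments took 3 of 1288 (0.233%, interval 0.0481 to 0.679) with AsiSI, against 17 of 237 (7.17%, 4.23 to 11.2) and 29 of 685 (4.23%, 2.85 to 6.02). The J share was lower with AsiSI, and the intervals do not overlap. The library with AsiSI and DRB, from the same run, had 2 of 1730, and the part of the run in this difference was not tested.

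Of the kinds of joint, only the direct share differed from both untreated libraries. Direct joints, microhomology and inserted bases together make up all joints, so their shares cannot change independently. Outside antigen receptor loci 74 of 931 AsiSI joints were direct, with neither shared nor inserted bases (7.95%, interval 6.29 to 9.88), against 174 of 675 (25.8%, 22.5 to 29.3) and 62 of 368 (16.8%, 13.2 to 21.1) untreated. The share was lower with AsiSI than in either (Fisher's exact test, adjusted p = 2.90e-21 and 1.98e-05). Microhomology was in 72.7% with AsiSI, against 56.6% and 69.3%, and passed against untreated replicate 1 only (Fisher's exact test, adjusted p = 8.21e-11 and 0.365). Inserted bases were in 19.3%, against 17.6% and 13.9%, and passed against untreated replicate 2 only (Fisher's exact test, adjusted p = 0.639 and 0.0374). The median microhomology was 3 bp in all 3 libraries, and the bait had lost more than 20 bp in 63.9% of joints, against 48.7% and 76.1%. At sites and in windows 10 of 104 AsiSI joints were direct (9.62%). In antigen receptor loci direct joints were 5.93% with AsiSI, against 6.28% and 4.53%. Prey alignments differed in length between untreated replicate 1 and the others, and its part in these shares was not tested.

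**Figure D5:**
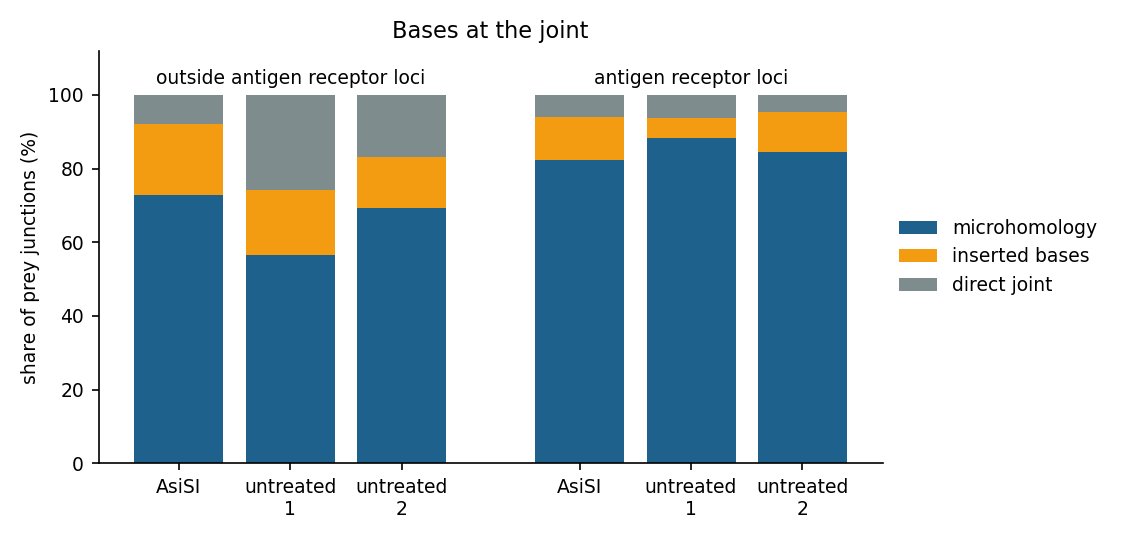
Share of prey junctions (%) with microhomology, with inserted bases and with a direct joint, for the AsiSI library and untreated replicates 1 and 2, outside antigen receptor loci (left) and within them (right). Each stack adds to all prey of its kind; outside these loci the direct share is 7.95% with AsiSI, against 25.8% and 16.8%.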

How the data were processed

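The assay was LAM-HTGTS, read on a MiSeq, as the labels' protocols state. The authors' deposited files list 1 junction per row with its position, alignments and read, per the file headers, with no counts and no normalization. Per the submitters' processing notes, mm10 and GRCm38.p2 were the builds and bedtools was used. Left out were junctions off chromosomes 1 to 19 and X (11 with AsiSI, against 6 and 6 untreated). Identical positions were all counted. Genes and promoters came from RefSeq (GRCm38.p6). An antigen receptor locus was a cluster of 10 or more segments. Fisher's exact test (scipy 1.17.1) was adjusted by Benjamini-Hochberg over 40 tests. Clopper-Pearson intervals at 95% cover counting error only, and limits for a count of 0 use 3 counts. For junctions per gene, limma 3.58.1 (R 4.3.3, voom weights) took prey outside antigen receptor loci as library size. On simulated data for this comparison, limma called all 100 tested genes with a 32-fold change, 29 of 50 with an 8-fold change and 1 of 18 without change. The simulated counts had counting error alone, with no spread between libraries. They do not show what limma could detect in the real libraries. Named genes were those of the chosen windows, the 10 most joined, any past the limma threshold and up to 4 joined members of each list. Those at sites and clusters were chosen after their values were seen. Of the listed genes 1 was not found. Members and lists were chosen with earlier results of these data known. Limma and permutation p-values rest on how far the libraries differ among themselves, possibly for technical reasons, and Fisher p-values cover counting error alone.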

Additional observations from a re-analysis of the deposited data

How the results depend on the processing

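The higher shares at promoter sites, in the chosen windows and at gene ends, and the lower share of direct joints, kept their direction and passed without untreated replicate 1, without untreated replicate 2, with each position counted once, with prey beyond 100 kb or 10 Mb, and with the other distances, window sizes and minimums tried, except that the gene end difference fell to 8.39 percentage points, and to 6.32 for starts within 1 kb, and no longer passed when junctions at sites and in windows were left out, an alternative chosen after seeing the data. That alternative took junctions from the AsiSI library alone, since the untreated libraries had 0 there. Leaving out each untreated replicate moved the difference, AsiSI minus untreated, between -21.8 and 6.44 percentage points for the prey share, -475 and 55.5 per 1000 for prey outside antigen receptor loci, -6.80 and 32.1 for the antigen receptor share, -8.29 and 16.2 for the chromosome 6 share, -12.2 and 15.2 for bait trimming, 6.47 and 12.2 for gene bodies, 3.42 and 16.1 for microhomology and 1.70 and 5.48 for inserted bases. The first 5 of these change sign without untreated replicate 1, and the prey share also with each position and strand counted once (2.39, against -7.66 with all junctions). Prey that begins at the cut, the whole site in reads and the 6 gene lists passed under no alternative. For the whole site this decides nothing, since prey that runs outward from the cut cannot hold it. The count of genes called was 0 with limma and at most 1 with its other library sizes, weights and minimums (1, Syde2, with junctions near the bait as library size) but 10 with Fisher's exact test on pooled libraries, which has no spread between replicates and whose 10 genes, with 0 in both untreated libraries, could enter only by being high with AsiSI. With 1 against 1 library the gene fit has no test, and 16 and 18 of 20 fold changes kept their sign. No paired analysis was possible because the AsiSI library is 1 library and shares no replicate number with a pair. Depth limits what could be seen, since a share under 0.328% and 0.285% could be missed in the untreated libraries.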

Other observations

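Over all 10 libraries, junctions at kappa J segments were scarce in both libraries of the AsiSI run. They made up 0.233% of kappa junctions with AsiSI and 0.116% with AsiSI and DRB (2 of 1730), while the 8 libraries of the other runs lay between 3.48% and 7.21%. V segments showed no such gap, with 50.2% with AsiSI and 48.6% with AsiSI and DRB, against 44.7% to 56.1% elsewhere. The difference follows the run and the tamoxifen as much as AsiSI, and its cause was not tested.

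The direct joints outside antigen receptor loci followed another order over the libraries. They made up 7.95% with AsiSI and 8.99% with AsiSI and DRB, 10.0% to 11.7% in the etoposide libraries without DRB, 16.5% with DRB and etoposide, and 16.8% to 25.8% in the 4 libraries with no added break. No test compared these groups.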
